A study of Homo sapiens with 4 samples.

Results

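Ephrins and their receptors were followed in Hs578T cells, an established line from a human breast carcinoma, after depletion of talin-1. The members are 10 genes chosen by name: the receptor genes EPHA2, EPHA4, EPHA5, EPHB2, EPHB3 and EPHB4, and the ligand genes EFNA1, EFNA5, EFNB1 and EFNB2. They are 10 of the 60721 genes in the deposited count table. All 10 also had a row in the deposited table of log2 CPM (read counts scaled to library size). All cells received a GFP construct. One group was co-transfected with a non-targeting RNA (SCR, 2 libraries) and the other with siRNA against TLN1 (siTLN1, 2 libraries), each RNA at 1.6 µM, and RNA was taken 48 h later. TLN1 encodes talin-1, which couples integrins to the actin cytoskeleton. The series describes the libraries of a group as biological replicates of this 1 cell line, and no second line or second siRNA was analysed here.

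Eph receptors form the largest family of receptor tyrosine kinases, and their ligands, the ephrins, are themselves bound to the surface of the neighbouring cell. Ephrin-A ligands are held by a lipid anchor and mostly bind EphA receptors, whereas ephrin-B ligands cross the membrane and mostly bind EphB receptors. Contact sends a forward signal through the receptor and a reverse signal through the ligand. Both are known to change the actin cytoskeleton and integrin adhesion, usually so that cells move apart or sort into separate groups. In breast epithelium and breast carcinoma lines, EphA2 and EphB4 are the receptors most often studied.

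Across the libraries the total counts ran from 31854322 to 46353297. TLN1 stood at 868 and 874 CPM in SCR libraries a and b and at 51.9 and 44.8 CPM in siTLN1 libraries a and b, so the target was low in both libraries labelled siTLN1. The letters mark a number that recurs in the column names of both groups and whose meaning the headers do not state. The labels call the cells epithelial, but 5 of 9 epithelial markers were under 1 CPM in every library, with EPCAM at 0 to 0.144 CPM and CDH1 at 0.409 to 0.851 CPM. KRT18, a keratin of simple epithelia, was at 104 to 131 CPM, and VIM, the mesenchymal filament vimentin, at 3811 to 3968 CPM. The 9 epithelial markers summed to 129 and 161 CPM in SCR and to 139 and 153 CPM in siTLN1. Of these 9, 5 were tested and 0 passed in edgeR and in limma-voom, DESeq2 called 0 of the 3 to which it gave an adjusted p, and 1 (CDH1) had an unadjusted p under 0.05 in edgeR. The 3 leukocyte markers summed to under 1 CPM in each library and CD3E was at 0, and the 3 endothelial markers summed to 3.21 to 4.72 CPM. Of 7 mesenchymal markers 2 were lower, CDH2 (log2 fold change −0.89, adjusted p 2.45e-05, edgeR) and SPARC (−0.48, adjusted p 0.0161, edgeR). Of all genes tested 3.77% were called lower. VIM, FN1, ZEB1, COL1A1 and COL1A2 did not pass, with log2 fold changes from −0.19 to 0.25. The part of CDH2 and SPARC in the values below was not tested.

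The comparison asked whether the transcripts of this contact-signalling family differed between the SCR libraries and the siTLN1 libraries, where the TLN1 transcript was lowered but not absent. With no second siRNA, the lowering of TLN1 and other effects of the transfected RNA cannot be told apart. Ephrin-A5 transcript (EFNA5) rose and ephrin-B1 transcript (EFNB1) fell, by 0.53 and 0.44 on the log2 scale. The remaining 8 members, among them all 6 receptors, did not pass the test. The 2 of 10 members that passed stand beside a background of 6.07% of the 16137 genes tested, by the quasi-likelihood test of edgeR, Benjamini-Hochberg adjusted over all genes, at a threshold of 0.05. The background is 2.30% for higher and 3.77% for lower transcripts. The median log2 fold change of the 10 members was 0.18, against 0.0033 for all genes tested, and 9 of the 10 fitted values were above 0. Among these, EPHA2, EPHA5 and EFNA1 changed sign when 1 library was left out. The share of values above 0 was not taken over all genes tested. The members were chosen with earlier results of these data known, so these counts and medians describe them and test nothing. The libraries of the groups did not overlap for 5 of the 10 members, of which 4 were higher and 1 lower in siTLN1. Among all genes tested that share was 48.4% (23.9% higher and 24.6% lower), so the count of 5 was near the background. Permuting 2 against 2 libraries exactly cannot give a p below 0.333 for 1 gene, so the adjusted p values come from the model over all genes. In these bulk samples, fewer cells that carry a transcript and less of it per cell cannot be told apart.

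**Figure D1:**
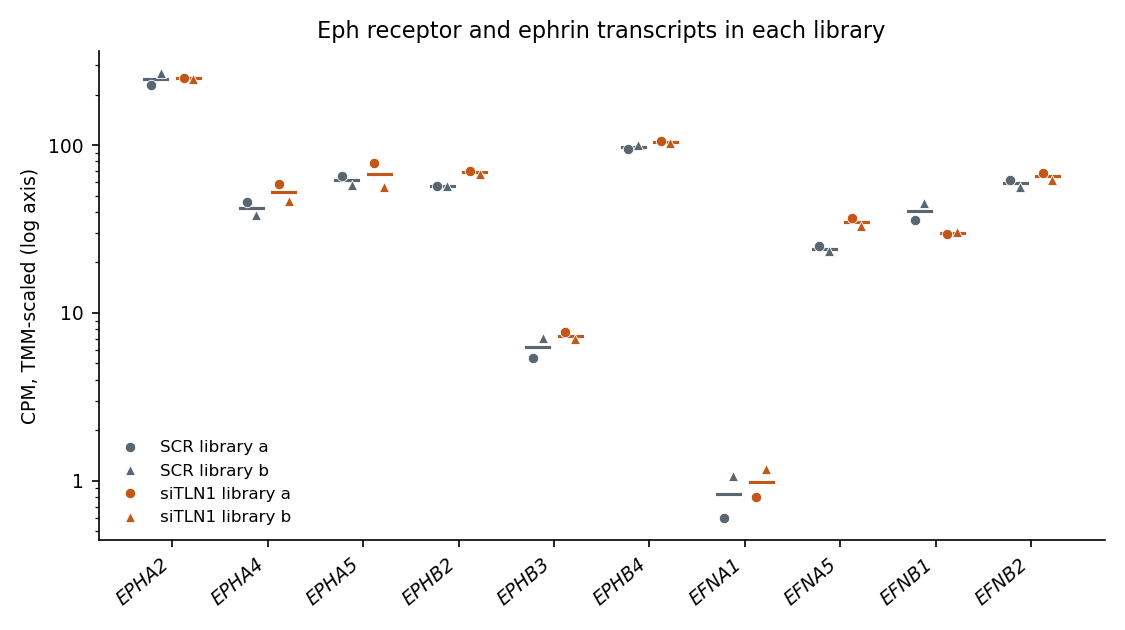
TMM-scaled CPM (log axis) of the 10 members in each library, with circles for libraries a, triangles for libraries b and a line at each group mean. EFNA5 is higher in both siTLN1 libraries (36.7 and 32.8 CPM) than in both SCR libraries, EFNB1 is lower in both (29.4 and 30.2 CPM), and EPHA2 overlaps between the groups.

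EFNA5 (ENSG00000184349.13; GRCh38, chromosome 5, 107376889 to 107670937, minus strand) encodes ephrin-A5, a lipid-anchored ligand that binds several EphA receptors and also EphB2. Its transcript was at 24.9 and 23.3 CPM in SCR libraries a and b and at 36.7 and 32.8 CPM in siTLN1 libraries a and b. Both siTLN1 libraries were above both SCR libraries, and the gap between the groups was wider than the spread within either. The fit put the difference at 0.53 (log2; standard error 0.10, 95% interval 0.30 to 0.75; adjusted p 0.00609, edgeR). Within the libraries that share a letter, the log2 ratio of siTLN1 to SCR was 0.56 for a and 0.49 for b. Without siTLN1 library a the log2 fold change was 0.44 and the call was lost (adjusted p 0.124, in a range of 0.00106 to 0.124 over the fits with 1 library left out).

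EFNA1 (ENSG00000169242.12; chromosome 1, 155127876 to 155134899, plus strand) encodes ephrin-A1, a main ligand of EphA2. It was the least abundant member, with 19 and 37 counts in SCR and 29 and 55 counts in siTLN1, or 0.598, 1.06, 0.797 and 1.17 CPM. The exact Poisson 95% interval of the lowest of these ran from 0.360 to 0.933 CPM, and such intervals cover counting error only. In both groups library b was above library a, and the groups overlapped. The log2 fold change of 0.26 had a 95% interval of −0.45 to 0.96 (adjusted p 0.746), so a level of up to 1.95 times that of SCR lay within the interval.

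EFNB1 (ENSG00000090776.6; chromosome X, 68829021 to 68842160, plus strand) encodes ephrin-B1, a transmembrane ligand of EphB receptors with its own cytoplasmic signalling tail. Its transcript was at 35.9 and 45.2 CPM in SCR libraries a and b and at 29.4 and 30.2 CPM in siTLN1. Both siTLN1 libraries lay below both SCR libraries, but the SCR libraries stood 9.33 CPM apart, and SCR library a was 5.66 CPM above the nearer siTLN1 library. The fitted difference was −0.44 (log2; standard error 0.11, 95% interval −0.68 to −0.20; adjusted p 0.0292, edgeR). Within letters the log2 ratio was −0.29 for a and −0.58 for b. The call was lost when genes with low counts were kept (adjusted p 0.0719, against 0.00747 to 0.0719 over the alternatives with all libraries and no term for replicates). It was also lost without SCR library b (log2 fold change −0.27, adjusted p 0.271), without siTLN1 library a (−0.42, 0.200) and without siTLN1 library b (−0.46, 0.0599).

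EFNB2 (ENSG00000125266.8; chromosome 13, 106489745 to 106535662, minus strand) encodes ephrin-B2, the preferred ligand of EphB4. It was at 62.1 and 56.5 CPM in SCR and at 68.5 and 61.8 CPM in siTLN1, with the groups overlapping. Its log2 fold change was 0.14 with a 95% interval of −0.07 to 0.35 (adjusted p 0.497), an interval that lies wholly above that of EFNB1. Exons on the opposite strand, of ENSG00000284966, cover 36.4% of the exon bases of EFNB2, and the counting had no strand option. That gene itself had 0.0574 to 0.255 CPM, and how many EFNB2 reads were left uncounted in the overlap is not known from the table, so the level of EFNB2 is uncertain.

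The ligands were also set against each other per exon length, as TPM (counts divided by exon length and scaled to the same sum in each library). In SCR, EFNB1 was at 48.0 and 57.9 TPM and EFNB2 at 54.8 and 47.7 TPM, so that neither was above the other in both libraries. These values divide the counts of EFNB2 by all its exon bases. Reads left uncounted in the overlap with opposite-strand exons would make EFNB2 too low. Its place beside EFNB1 and the shares below are therefore uncertain. In siTLN1, EFNB1 was at 37.1 and 38.6 TPM and EFNB2 at 56.9 and 52.1 TPM, with EFNB1 below EFNB2 in both. The log2 ratio of EFNB1 to EFNB2 was −0.19 and 0.28 in SCR and −0.62 and −0.43 in siTLN1. It did not overlap between groups, and the exact permutation test gave a two-sided p of 0.333, the smallest it can reach with 2 against 2. The 8 ephrin genes together summed to 149 ± 3.21 TPM (SD, n = 2) in SCR and 149 ± 0.307 TPM (SD, n = 2) in siTLN1. Within that sum EFNB1 made up 32.8% and 38.3% in SCR and 24.9% and 25.8% in siTLN1. EFNA5 made up 13.1% and 11.4% in SCR and 17.8% and 16.1% in siTLN1. EFNB2 overlapped between the groups at 37.4% and 31.6% against 38.1% and 34.8%.

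**Figure D2:**
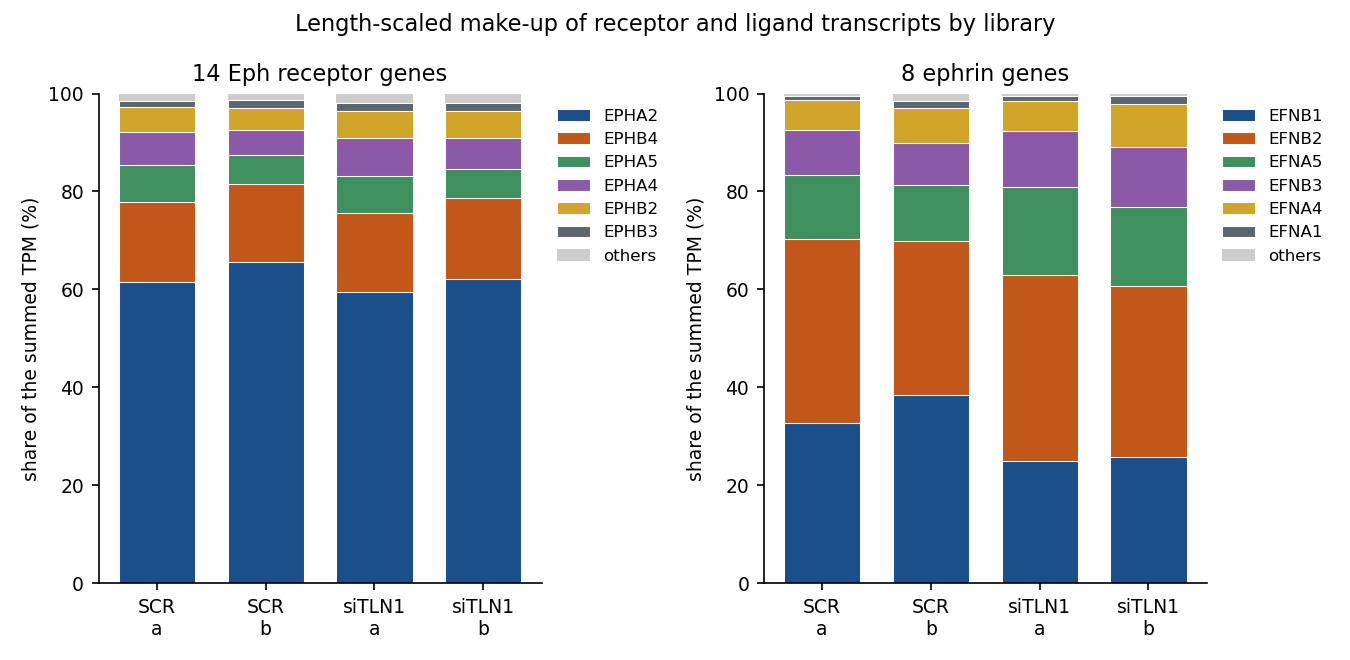
Share (%) of the summed TPM of the 14 Eph receptor genes (left) and the 8 ephrin genes (right) in each library, with the 6 most abundant genes of SCR shown apart. EPHA2 is the widest receptor band in all 4 libraries (59.4% to 65.7%), and among ligands the EFNB1 band is narrower in both siTLN1 libraries.

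EPHA2 (ENSG00000142627.13; chromosome 1, 16124337 to 16156069, minus strand) encodes EphA2, a receptor found at high level in many carcinoma lines. It was the most abundant receptor transcript, at 245 and 275 TPM in SCR and 253 and 254 TPM in siTLN1. On the CPM scale it was at 229 and 269 in SCR and at 252 and 249 in siTLN1, so both siTLN1 libraries lay between the SCR libraries. The log2 fold change was 0.0071 with a 95% interval of −0.20 to 0.22 (adjusted p 0.983), or 0.869 to 1.16 times the SCR level. Its sign turned in fits that left out 1 library, from −0.10 without SCR library a to 0.13 without SCR library b.

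EPHA4 (ENSG00000116106.12; chromosome 2, 221418027 to 221574202, minus strand) encodes EphA4, which binds ligands of both ephrin classes. It was at 46.0 and 38.4 CPM in SCR libraries a and b and at 58.8 and 46.2 CPM in siTLN1, so the groups barely separated, by 0.217 CPM between SCR library a and siTLN1 library b. Its log2 fold change of 0.32 (95% interval 0.04 to 0.59) had an unadjusted p of 0.0268 and did not pass (adjusted p 0.180, edgeR). It passed without SCR library a (log2 fold change 0.45, adjusted p 0.0129) and without siTLN1 library b (0.48, 0.0268), in a range of 0.0129 to 0.789 over the fits with 1 library left out. EPHA5 (ENSG00000145242.13; chromosome 4, 65319563 to 65670495, minus strand) encodes EphA5, a receptor best known from the developing nervous system. It was at 65.8 and 57.5 CPM in SCR and at 77.7 and 56.1 CPM in siTLN1, and siTLN1 library b was the lowest of the 4 and siTLN1 library a the highest. Its log2 fold change was 0.12 with a 95% interval of −0.18 to 0.42 (adjusted p 0.717). It was −0.14 without siTLN1 library a and 0.34 without siTLN1 library b. Exons on the opposite strand share 4.67% of the exon bases of EPHA4 and, in EPHA5-AS1, 5.44% of those of EPHA5, so a small part of both counts is uncertain.

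EPHB2 (ENSG00000133216.16; chromosome 1, 22710839 to 22921500, plus strand) encodes EphB2, a receptor for ephrin-B ligands that drives cell sorting. It was at 57.0 CPM in each SCR library and at 70.3 and 67.4 CPM in siTLN1, with the groups apart. Its log2 fold change of 0.27 (95% interval 0.07 to 0.47) had an unadjusted p of 0.00982 and did not pass after adjustment (adjusted p 0.100, edgeR). EPHB4 (ENSG00000196411.10; chromosome 7, 100802565 to 100827523, minus strand), the receptor of ephrin-B2, was at 94.1 and 101 CPM in SCR and at 106 and 104 CPM in siTLN1. Both siTLN1 libraries were above both SCR libraries, by 2.99 CPM between the nearest ones. The log2 fold change of EPHB4 was 0.11, with a 95% interval of −0.09 to 0.30 (adjusted p 0.576). EPHB3 (ENSG00000182580.3; chromosome 3, 184561785 to 184582408, plus strand), another ephrin-B receptor, had 172 and 247 counts in SCR and 279 and 328 in siTLN1. At 5.41 and 7.09 CPM against 7.66 and 6.98 CPM its groups overlapped, and the log2 fold change was 0.22 with a 95% interval of −0.11 to 0.55 (adjusted p 0.475). Of the 6 receptors, 0 passed edgeR's test, DESeq2 and limma-voom alike, and 2 had an unadjusted p under 0.05 in edgeR.

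Ordered by mean TPM in SCR, the members were EPHA2 (259.5), EPHB4 (65.3), EFNB1 (53.0), EFNB2 (51.3), EPHA5 (27.1), EPHA4 (24.2), EPHB2 (19.7), EFNA5 (18.2), EPHB3 (5.95) and EFNA1 (1.65). EPHA2 and EPHB4 did not overlap with their neighbours in this order over the SCR libraries. EFNB1 overlapped with EFNB2, and EPHA5 with EPHA4. EPHB2 and EFNA5 were apart by 0.0816 TPM between the nearest libraries. TPM divides by all annotated exon bases of a gene (12516 for EPHB2 and 5745 for EFNA5), whichever transcripts the cells make. Places between genes in these orders therefore depend on the annotation. In siTLN1, 3 neighbouring pairs changed places by the means. EFNB2 (54.5 TPM) was above EFNB1 (37.9 TPM) and EFNA5 (25.3 TPM) above EPHB2 (23.03 TPM) with no overlap of libraries. EPHA4 (29.1 TPM) was above EPHA5 (28.5 TPM) with overlap. The exons on the opposite strand of EFNB2 leave its place in both orders uncertain. EPHA2 made up 61.6% and 65.7% of the summed TPM of the 14 receptor genes in SCR and 59.4% and 62.0% in siTLN1, and EPHB4 made up 15.8% to 16.6% in every library.

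Libraries that share a letter lay on the same side of their groups for 7 of the 10 members. Library a was above library b in both groups for 5 members (EPHA4, EPHA5, EPHB2, EFNA5 and EFNB2), library b was above library a in both groups for EFNA1 and EFNB1, and for EPHA2, EPHB3 and EPHB4 the order differed between groups. Some of these orders rest on small gaps: the SCR libraries of EPHB2 were 0.0366 CPM apart and the siTLN1 libraries of EFNB1 0.790 CPM. Comparing siTLN1 with SCR within each letter, 6 members were higher in both, EFNB1 was lower in both, and EPHA2, EPHA5 and EPHB3 were split. EPHB3 had a log2 ratio of 0.50 for a and −0.02 for b. The same counts were not taken over all genes tested, so neither 7 nor 6 of 10 is read as a trait of the members. The part of whatever the number marks in these values was not tested.

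**Figure D3:**
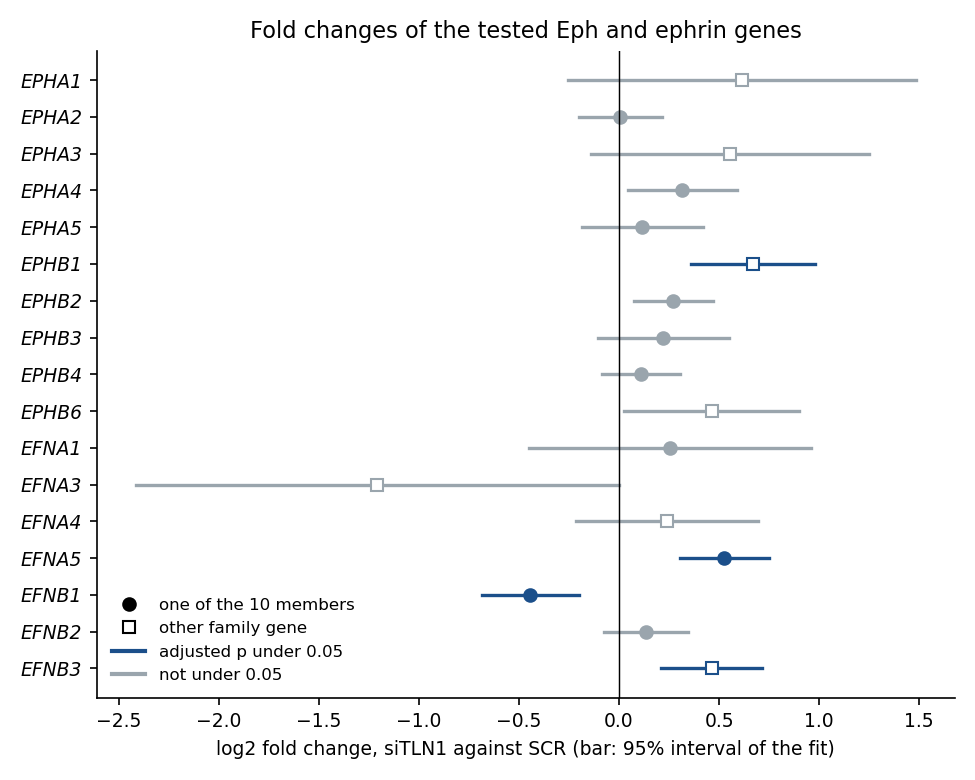
Log2 fold change (siTLN1 against SCR) and its 95% interval for the 17 Eph and ephrin genes that were tested, with filled circles for the 10 members, open squares for the other family genes and dark blue for an adjusted p under 0.05. EFNA5, EPHB1 and EFNB3 lie to the right of 0 and EFNB1 to the left, and EFNA3 has the widest interval.

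Of the other 12 genes of the family, 7 were tested and 2 were called, both upward. Over all genes tested the share called was 6.07%, with 2.30% higher. EPHB1 encodes EphB1, a receptor of ephrin-B ligands. It rose from 5.60 and 4.795 CPM to 8.52 and 8.02 CPM, by 0.67 on the log2 scale (standard error 0.15, adjusted p 0.0111, edgeR). EFNB3, the ephrin-B3 gene, rose from 9.94 and 9.85 CPM to 13.3 and 13.96 CPM, by 0.46 (standard error 0.12, adjusted p 0.0289, edgeR). Both genes had siTLN1 libraries above both SCR libraries, as had 23.9% of all genes tested. The call of EPHB1 was lost without SCR library b (0.56, adjusted p 0.0578) and without siTLN1 library a (0.63, 0.0999), and 5.27% of its exon bases are shared with KY on the opposite strand. That of EFNB3 was lost with DESeq2 (adjusted p 0.0529, against 0.0173 to 0.0529 over the alternatives with all libraries and no term for replicates) and in each fit with 1 library left out, whose adjusted p ran from 0.0516 to 0.143. Among ephrin-B ligands EFNB3 went from 11.7% and 10.9% of the summed TPM to 15.5% and 16.8%, while EFNB1 went from 41.2% and 48.8% to 33.4% and 35.4%. That sum includes EFNB2, whose level is uncertain.

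Of the remaining family genes, EPHB6, a receptor without kinase activity, was at 1.86 and 2.15 CPM in SCR and 3.02 and 2.55 CPM in siTLN1 (log2 fold change 0.46, adjusted p 0.223). EFNA4, the ephrin-A4 gene, was at 2.49 and 3.22 CPM in SCR and 2.72 and 3.96 CPM in siTLN1 (0.24, adjusted p 0.599). EPHA3 and EPHA1 were at 0.315 to 1.23 CPM. EFNA3 was at 0.252 and 0.948 CPM in SCR and at 0.247 and 0.277 CPM in siTLN1, so SCR library b alone stood apart. Its log2 fold change of −1.21 (adjusted p 0.252) was 0.07 without that library and −1.83 without SCR library a, where it passed (adjusted p 0.00668, in a range of 0.00668 to 0.983 over the fits with 1 library left out). A readthrough gene on the same strand shares 43.9% of the exon bases of EFNA3 and 15.04% of those of EFNA4, and the counts of both are uncertain. EPHA6, EPHA7, EPHA8, EPHA10 and EFNA2 did not reach the count needed for testing and had no row in the deposited log2 CPM table. EPHA7 had 0 counts in all 4 libraries, which allows up to 0.0944 CPM (3 counts) in the shallowest one.

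Genes that act next to the receptors and ligands were taken from a list of 66. Of these, 62 were tested, 1 was higher and 4 were lower, 8.06% against the background of 6.07%, and the median log2 fold change was 0.02 against 0.0033 over all genes. At the receptor itself, CBLB rose and SHC1 fell among 22 kinases, adaptors and phosphatases. CBLB, a ubiquitin ligase that takes part in the removal of activated receptors, went from 111 and 106 CPM to 156 and 146 CPM (log2 fold change 0.48, adjusted p 0.00501). SHC1, an adaptor towards the Ras pathway, went from 212 and 223 CPM to 166 and 173 CPM (−0.36, adjusted p 0.0266), and genes on the opposite and the same strand share 7.51% and 7.72% of its exon bases. Among 21 tested GTPases and regulators 2 were lower. ITSN1, an exchange factor for Cdc42 known as a partner of EphB2, went from 97.0 and 92.5 CPM to 69.5 and 74.0 CPM (−0.40, adjusted p 0.0163). RRAS, a GTPase that favours integrin activation and is a known substrate of Eph signalling, went from 54.6 and 61.2 CPM to 38.3 and 46.4 CPM (−0.45, adjusted p 0.0230). Among 11 proteases and clustering proteins CAV1, the caveolar coat protein, was lower, at 1526 and 1471 CPM against 1145 and 1138 CPM (−0.39, adjusted p 0.0270). Of 8 tested scaffold and PDZ partners 0 passed in edgeR and in limma-voom, DESeq2 called 0 of the 6 to which it gave an adjusted p, 0 of the 8 had an unadjusted p under 0.05 in edgeR, and their median was 0.13. Without siTLN1 library a, 0 of these 5 genes passed. SHC1 and RRAS were also lost with no filter and without SCR library b, SHC1 without siTLN1 library b, and CAV1 in every fit with 1 library left out.

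A sequence feature of the transcripts was read beside these values. For 16078 words of 7 bases in the 3′ UTRs of 9493 genes, the mean log2 fold change with and without the word was compared. Words were ranked by that difference over its standard error, and GACAACA came first in the direction of lower values. The median was −0.10 for the 757 genes with it, against 0.0086 for the rest. The word was chosen from this same contrast, so these values describe it and test nothing. In the GENCODE 29 transcript with the longest coding sequence, it was in the 3′ UTR of 7.31% of 12864 tested genes and in the coding sequence alone of 14.6%. Only the transcript's own strand was searched, and the next words by rank, ACAACAA and TGACAAC, overlap it. None of the 10 members held it in the 3′ UTR of any annotated coding transcript. EFNB1 and EFNB2 each held 1 copy in the coding sequence, the other 8 members none, and TLN1 itself 1 copy in its coding sequence. In the rest of the family, EPHA3 and EPHA7 held 1 copy each in the 3′ UTR. The sites of both ephrin-B members, of TLN1 and of EPHA3 are shown 5′ to 3′ on the transcript strand, with the word in capitals, because both ephrin-B members carry it and only EFNB1 passed the test:
EFNB1: caaggaggcaGACAACActgtcaagat
EFNB2: gaagaagttcGACAACAagtccctttg
TLN1: tagaggacctGACAACAaccctcaacg
EPHA3: tgcactaattGACAACAcagcctatag
On GRCh38 the capitals lie at chrX:68840016-68840022 (plus strand), chr13:106494906-106494912 (minus), chr9:35706037-35706043 (minus) and chr3:89480589-89480595 (plus). Of the 941 genes with the word in the 3′ UTR, the region it was chosen from, 16.8% were called lower and 2.02% higher. EPHA3, with a copy there, had a log2 fold change of 0.55 (adjusted p 0.383, edgeR). Among genes with the word in coding sequence alone the median log2 fold change was −0.02, with 6.21% called lower and 2.23% called higher. That class includes TLN1 itself, the target of the siRNA, and the classes were not matched for transcript length or level. Genes with the word in neither region had a median of 0.02, with 2.89% called lower and 2.78% called higher. EFNA5, EPHB1, EFNB3, CBLB, SHC1, RRAS and CAV1 held no copy in either region of any annotated coding transcript, whereas the chosen transcript of ITSN1 held 1 in the 3′ UTR. The part of the word in the fall of EFNB1 was not tested.

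**Figure D4:**
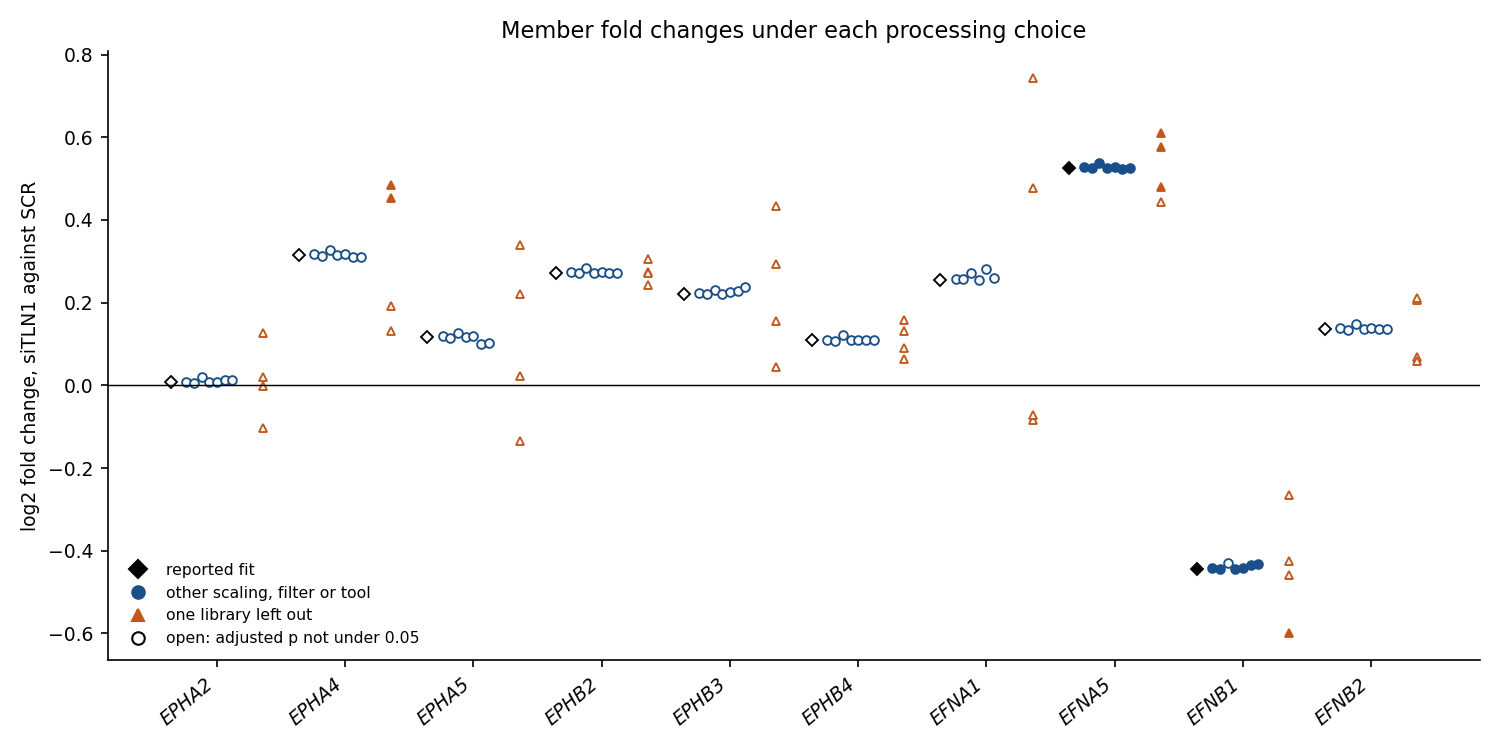
Log2 fold change of each member in the reported fit (diamond), under 7 other scalings, filters or tools (circles; 6 for EFNA1, to which DESeq2 gave no adjusted p) and with each library left out in turn (triangles), filled where the adjusted p was under 0.05. The circles stay close to the diamond for every member, whereas leaving out 1 library spreads EFNA1 from −0.08 to 0.74 and EFNB1 from −0.60 to −0.27.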

How the data were processed

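RNA of 4 libraries (2 SCR, 2 siTLN1) was sequenced from stranded mRNA preparations, per the labels' protocols. The deposited raw counts per gene came from featureCounts 2.0.0 in paired-read mode on GENCODE 33 (GRCh38) with no strand option, per the file headers; STAR 2.7.9a and edgeR 3.34.1 are named in the submitters' processing notes. Exon lengths, used for TPM, are another column the authors deposited. The deposited log2 CPM table holds 16137 genes. A check found the same genes that filterByExpr keeps, and 100% of the values, once sorted inside each group, matched TMM-scaled log2 CPM to 6 decimals. Count columns were mapped to groups only, since their numbers match no label. 0 rows named no gene and 0 sample columns were unmapped.

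Gene symbols were matched by Ensembl ID without version. Genes passed filterByExpr (minimum count 10, minimum total 15), libraries were scaled by TMM, and siTLN1 was set against SCR in edgeR 4.0.16 (under R 4.3.3; estimateDisp, robust glmQLFit, glmQLFTest) with Benjamini-Hochberg adjustment over 16137 genes at 0.05. The standard error is the log2 fold change over the root of F, and 95% intervals use the moderated degrees of freedom. CPM values are TMM-scaled and TPM values are not. The biological coefficient of variation was 0.0805. Other settings were total counts without scaling, RLE scaling, keeping all genes with a count, a mean of at least 10 counts, DESeq2 1.42.0, limma-voom and limma-trend (limma 3.58.1), a replicate block, and each library left out in turn, where the lone sample of an arm is assumed to vary like the other group. Words and sites were read from GENCODE 29 transcripts (genes at 5 CPM or more with a 3′ UTR of at least 100 bases, words held by at least 50 genes); the counts used another release. Named genes are all 10 members, TLN1, the other family genes and the list genes past the threshold. The members, lists and tests were chosen with earlier results of these data known. Python 3.11.15, pandas 2.3.3, scipy 1.17.1 and matplotlib 3.10.9 were used. No protein sequences were used here.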

Additional observations from a re-analysis of the deposited data

How the results depend on the processing

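With all 4 libraries and no term for replicates, EFNA5 kept its direction and its call under all 7 alternatives (log2 fold change 0.52 to 0.54), and EFNB1 kept its direction under all 7 and its call under 6, with no filter as the exception (−0.43). The members past the threshold then numbered 1 rather than 2. That fit kept all genes with a count, and the cause of the lost call was not tested. DESeq2 gave no adjusted p for EFNA1. With 1 library left out, the members past the threshold numbered 0 (without siTLN1 library a) to 3 (without SCR library a), the genes of the signalling list together with the other family genes 0 to 8 (7 with all libraries), and all genes 347 to 1116 (980 with all libraries). TLN1 ran from −4.28 to −4.07. Over the same fits the log2 fold change ran from −0.10 to 0.13 for EPHA2, −0.14 to 0.34 for EPHA5, −0.083 to 0.74 for EFNA1, −1.83 to 0.066 for EFNA3 and −0.070 to 0.47 for EFNA4, all of which changed sign, and the cause was not tested.

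The replicate numbers of the labels share no stated preparation. Differences between replicates 1 and 2 correlated between groups at 0.19 over all genes and 0.54 over genes at 5 CPM or more, and 2 pairs are too few to establish pairing. With the replicate block, limma-trend called 3645 genes, 4 members and 19 list genes. EPHA4 (log2 fold change 0.31, adjusted p 0.000204) and EPHB2 (0.27, adjusted p 0.000768) were the members added, and EFNA5 and EFNB1 were the other two. Counts under 60 in at least 1 library limit what can be said of EFNA1, EPHA1, EPHA3, EFNA3 and EPHB6. The 2 libraries a group limit precision for every tested family gene. The line at 60 was a choice: EFNA4, at 79 to 186 counts, had the same standard error (0.21) as EPHB6 (0.21).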
